A study of Mus musculus with 4 samples.

Results

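Perivascular cells, the mural cells that wrap small blood vessels, were taken from single-cell RNA-sequencing of 4 mouse mammary gland libraries, 1 per mouse. A barcode was kept if over 500 genes were detected and mitochondrial genes took less than 20% of its UMIs (unique molecular identifiers, 1 per captured RNA molecule). Perivascular cells were chosen by these measured values, on which no test is run. A kept cell was called perivascular where Epcam, the epithelial adhesion gene, was under 10 UMIs per 10000, where Ptprc (immune), Pecam1 (endothelial) and Krt5 (basal epithelial) were at 0, and where at least 2 of the 6 genes Notch3, Rgs5, Higd1b, Gja4, Kcnj8 and Abcc9 were detected. Their UMIs also had to outnumber those of the fibroblast genes Scara5, Clec3b, Pi16, Lrrc15, Fap and Adam12. In all, 115 of 18200 kept cells met these conditions. WT replicates 1 and 2 gave 17 of 4914 and 7 of 3515 kept cells, and LATS1/2 KO replicates 1 and 2 gave 29 of 4499 and 62 of 5272.

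Mural cells range from pericytes on capillaries to smooth muscle cells on arterioles and venules. Smooth muscle cells carry a contractile apparatus of smooth muscle myosin (Myh11) and alpha actin (Acta2), driven by serum response factor with its partner myocardin, whereas pericytes carry little of it, share the basement membrane with the endothelium and express the potassium channel made of Kcnj8 and Abcc9. Both depend on PDGF receptor beta (Pdgfrb) and Notch3, and both can lay down matrix in remodelled tissue.

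The study asked how the gland's stroma is altered when the Hippo pathway kinases LATS1 and LATS2 are lost from the luminal epithelium. All 4 mice carried Lats1f/f and Lats2f/f alleles and an R26-lsl-EYFP reporter, and all received 5 doses of 2 mg tamoxifen and were collected 7 days after the last dose. The LATS1/2 KO mice (n = 2) also carried Krt8-CreERT2, and the WT mice (n = 2) had no Cre. The reporter was heterozygous in 3 mice and homozygous in LATS1/2 KO replicate 2. The mice were adult and nulliparous, with ages from 3 to 10 months, and live cells were sorted. The Krt8 promoter is active in luminal epithelium, so the perivascular cells are neighbours of the targeted cells and not the target themselves. Lats1 and Lats2 were sparse in the perivascular cells, with 2, 1, 3 and 5 UMIs of Lats1 and 4, 4, 7 and 18 of Lats2 in WT replicates 1 and 2 and LATS1/2 KO replicates 1 and 2. In the epithelial cells of the same libraries, taken as cells with at least 10 Epcam UMIs per 10000, Lats1 was at 0.239 and 0.239 UMIs per 10000 in WT and at 0.170 and 0.173 in LATS1/2 KO, Lats2 was at 0.140 and 0.151 against 0.275 and 0.293, and EYFP was at 0.00267 and 0.00340 against 0.761 and 1.18. Counts from the 3′ end of a transcript need not register the loss of floxed exons elsewhere in the gene, so Lats1 and Lats2 levels do not check the deletion, whereas EYFP went with the labels.

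The perivascular cells held 69979 and 37338 UMIs in WT replicates 1 and 2 and 121767 and 270579 UMIs in LATS1/2 KO replicates 1 and 2, with median depths of 4402, 5527, 2859 and 3755 UMIs per cell. No perivascular barcode was shared between libraries. WT replicate 2 stood apart in RNA quality as well as in number, since the median share of mitochondrial UMIs in its 7 cells was 12.1% against 4.23 to 6.57% in the other 3 libraries. Nothing in the labels names a batch.

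The cells matched the label by markers that had not selected them. Pdgfrb was detected in 11 of 17 and 4 of 7 WT cells and in 25 of 29 and 49 of 62 LATS1/2 KO cells. The summed level of 7 further mural markers (Pdgfrb, Cspg4, Mcam, Cox4i2, Ndufa4l2, Vtn and Des) was 18.7, 23.3, 13.3 and 18.9 UMIs per 10000 in WT replicates 1 and 2 and LATS1/2 KO replicates 1 and 2. The same sum was 1.64 to 3.72 in fibroblasts led by Scara5, Clec3b and Pi16, 4.60 to 5.90 in fibroblasts led by Lrrc15, Fap and Adam12 and 0.828 to 2.50 in endothelial cells. The genes that led the perivascular cells over all other kept cells, ranked by the smaller ratio of the LATS1/2 KO libraries, were Olfr558, H2-M9, Nrip2, Des (desmin), Pln (phospholamban, the regulator of the calcium pump), Ndufa4l2, Synpo2, Gm13889, Rgs4 and Gucy1a3 (a subunit of the nitric oxide receptor). Some of these ratios rest on few UMIs. In LATS1/2 KO replicate 1, Olfr558, Nrip2 and Pln were at 0.328, 0.164 and 0.246 UMIs per 10000, which for Pln is 3 UMIs. Among single markers of other cells, Cdh5, which defines endothelium, had 3, 0, 0 and 1 UMIs in the 4 libraries. Pdgfra of fibroblasts was found in 0 of 24 WT cells and in 7 of 91 LATS1/2 KO cells. Lists of other cells were not low throughout. The endothelial list without Pecam1 summed to 5.00 and 2.68 UMIs per 10000 in the perivascular cells of WT replicates 1 and 2. In the same libraries it was at 58.0 and 55.6 in endothelial cells and at 0.474 and 0.443 over all kept cells. The summed fibroblast list was at 21.4 and 0.803 UMIs per 10000 in WT and at 69.5 and 37.1 in LATS1/2 KO. In fibroblasts of LATS1/2 KO it was at 261 and 216 (led by Scara5, Clec3b and Pi16) and at 445 and 390 (led by Lrrc15, Fap and Adam12). The epithelial list, given below, was also higher in LATS1/2 KO.

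The cells nearest to the limits of the selection were sparse in evidence. Of the 115 cells, 54 had exactly 2 of the 6 genes and 15 of these had 2 UMIs in all. Just outside the selection, 140 cells had 1 of the genes, 2 cells with 2 genes were tied with the fibroblast genes, and 25 cells with 2 genes were below them. Signs of mixture with other cells were seen in LATS1/2 KO libraries. In all, 6 cells were keratin-rich, with at least 20 UMIs of Krt8 plus Krt18, and 6 others were collagen-rich, with at least 100 UMIs of Col1a1 plus Col3a1. The 1 keratin-rich cell of LATS1/2 KO replicate 1 held 23435 UMIs, 19.2% of that library's perivascular UMIs, and the 5 of LATS1/2 KO replicate 2 held 17.8%. The collagen-rich cells held 26.9% and 9.05%. EYFP had 6 and 21 UMIs in the perivascular cells of LATS1/2 KO replicates 1 and 2, of which 5 and 19 lay in keratin-rich cells, and none in WT. Results are therefore also given without these 12 cells, a choice made after the data had been seen.

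Perivascular cells made up a larger share of the kept cells in both LATS1/2 KO libraries than in either WT library. The share was 0.346% (exact 95% binomial interval 0.202 to 0.553) and 0.199% (0.0801 to 0.410) in WT and 0.645% (0.432 to 0.924) and 1.18% (0.903 to 1.51) in LATS1/2 KO. The intervals cover counting error within a library only. The means were 0.273% ± 0.104 (SD, n = 2) and 0.910% ± 0.376 (SD, n = 2), and the exact two-sided permutation test gave p = 0.33, the smallest value that 2 libraries against 2 allow. Among the cells that met the limits on Epcam, Ptprc, Pecam1 and Krt5 alone the order was the opposite, with 7.46% and 6.19% in WT and 3.61% and 4.02% in LATS1/2 KO (exact permutation p = 0.33). With every cell thinned to 2000 UMIs, so that depth was equal, 10 of 4626 and 2 of 3408 WT cells and 21 of 4029 and 40 of 4576 LATS1/2 KO cells met the conditions. Endothelial cells, which the perivascular cells accompany, made up 0.712% and 0.939% of WT cells and 4.45% and 3.85% of LATS1/2 KO cells.

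**Figure D1:**
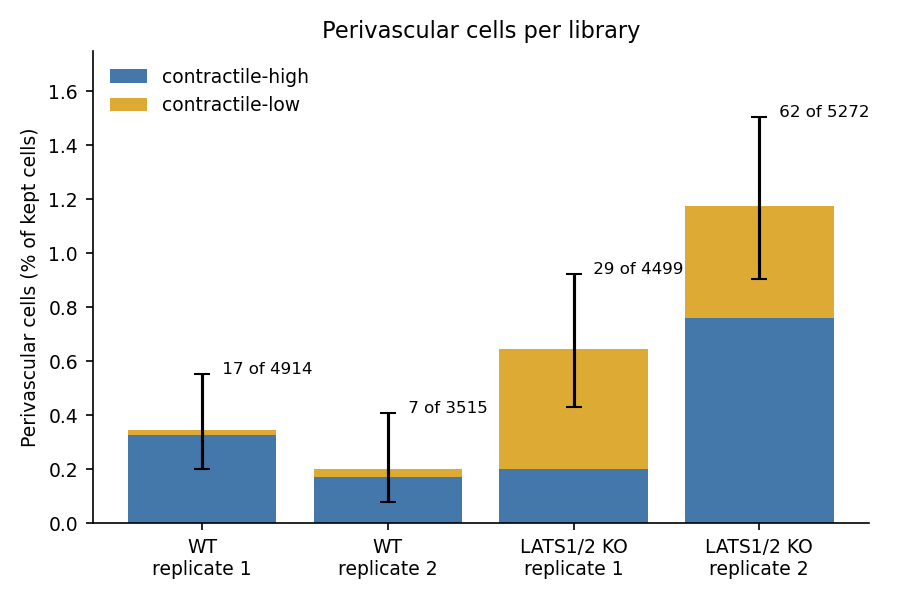
Perivascular cells as a percentage of kept cells in each of the 4 libraries, split into contractile-high and contractile-low cells, with the exact 95% binomial interval of the total as error bars and the numbers of cells printed. Both LATS1/2 KO bars (0.645% and 1.18%) are taller than both WT bars (0.346% and 0.199%), and the contractile-low segment is thin in WT, with 1 cell per library, and holds 20 and 22 cells in LATS1/2 KO.

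A cell was called contractile-high with at least 10 UMIs of Myh11 plus Acta2 per 10000. The summed level of these genes ran from 4.54 to 305 with a median of 73.4 in WT replicate 1, from 8.43 to 360.4 with a median of 168 in WT replicate 2, from 0 to 101 with a median of 3.06 in LATS1/2 KO replicate 1 and from 0 to 234 with a median of 35.5 in LATS1/2 KO replicate 2. The ranges overlapped, and no WT cell was at 0, whereas 13 cells of LATS1/2 KO replicate 1 and 15 of LATS1/2 KO replicate 2 had neither gene. Contractile-high cells were 16 of 17 and 6 of 7 in WT. They were 9 of 29 (31.0%, exact 95% binomial interval 15.3 to 50.8) and 40 of 62 (64.5%, 51.3 to 76.3) in LATS1/2 KO, so that the 2 LATS1/2 KO mice differed from each other beyond counting error. The mean share was 89.9% ± 5.94 in WT and 47.8% ± 23.7 in LATS1/2 KO (SD, n = 2 each, exact permutation p = 0.33). Per kept cell, contractile-low cells made up 0.0204% and 0.0284% in WT and 0.445% and 0.417% in LATS1/2 KO, and contractile-high cells 0.326% and 0.171% against 0.200% and 0.759%. The contractile-high shares thus overlapped between the conditions and the contractile-low shares did not. Within 5 to 20 per 10000, near the limit, lay 2, 1, 7 and 7 cells. Without the keratin-rich and collagen-rich cells the contractile-high share of LATS1/2 KO was 7 of 24 and 39 of 55.

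**Figure D2:**
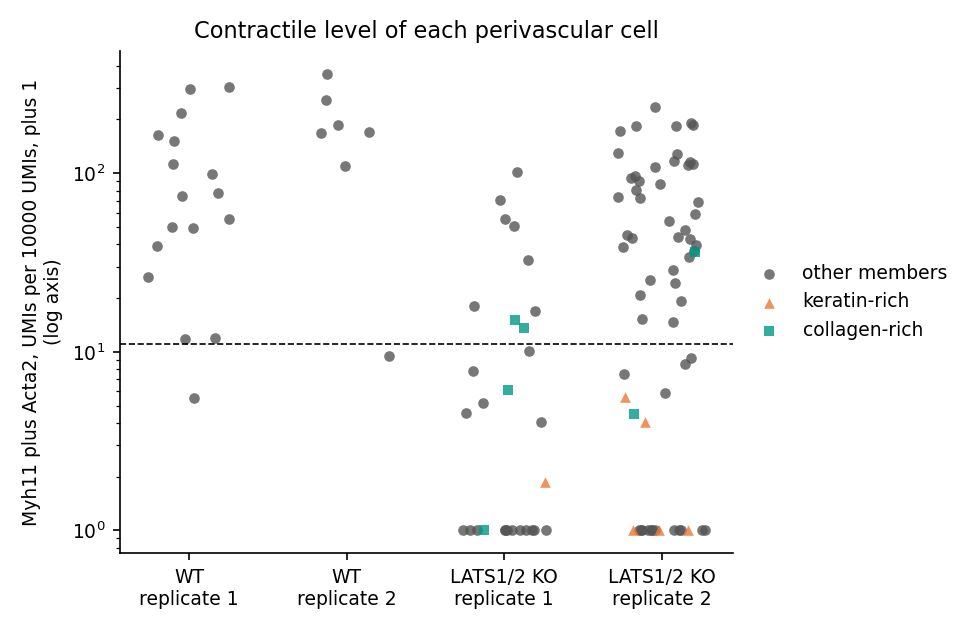
Myh11 plus Acta2 in each perivascular cell, as UMIs per 10000 UMIs plus 1 on a log axis, by library; the dashed line is the limit of 10 per 10000, and triangles and squares mark keratin-rich and collagen-rich cells. WT cells lie at 4.54 or higher, while 13 and 15 cells of LATS1/2 KO replicates 1 and 2 lie on the baseline, and all 6 keratin-rich cells lie below the line.

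The mural genes of the selection itself differed between contractile-high and contractile-low cells of the LATS1/2 KO libraries, which is a description since they chose the cells. Kcnj8 was found in 0 of 9 and 5 of 40 contractile-high cells and in 10 of 20 and 8 of 22 contractile-low cells of replicates 1 and 2. Abcc9, which encodes its partner subunit, was found in 3 of 9 and 5 of 40 against 13 of 20 and 13 of 22. Notch3 went the other way, in 6 of 9 and 35 of 40 contractile-high cells and 9 of 20 and 13 of 22 contractile-low cells. Rgs5, a regulator of G protein signalling used as a pericyte marker, was at 4.92 and 7.13 UMIs per 10000 in contractile-high cells and at 12.3 and 6.96 in contractile-low cells, so that the direction was not shared by the 2 libraries. Pdgfrb, which had no part in the selection, was at 4.40 and 5.36 against 5.77 and 4.64.

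Across the transcriptome, 2035 genes had at least 30 UMIs in the LATS1/2 KO perivascular cells and could be described on this split. Of these, 97 (4.77%) were at least 2-fold higher and 102 (5.01%) at least 2-fold lower in contractile-high cells in both libraries, with 0.5 UMI added to each sum. Of the smooth muscle list, 10 of 17 genes were described apart from the genes of the split, 6 were higher in both libraries (Lmod1, Myl9, Mylk, Sncg, Tagln and Tpm2) and 0 lower. The median log2 ratio of that list was 2.61 in LATS1/2 KO replicate 1 and 3.59 in replicate 2, beside 0.05 and -0.14 over all genes described. Myl9, the regulatory light chain of myosin, was at 9.58 and 25.6 UMIs per 10000 in contractile-high cells and at 0.481 and 0.535 in contractile-low cells. Tagln, the actin-binding protein transgelin, was at 33.7 and 118 against 5.17 and 6.69.

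Outside that list, the genes with the largest ratios in both libraries were Spp1, Mustn1, Pcp4l1, S100a4, Synm (synemin, an intermediate filament protein), Crispld2, S1pr3 (a receptor for sphingosine 1-phosphate) and Ptp4a3, beside Sncg, Myl9, Lmod1 and Tpm2. In LATS1/2 KO replicate 1, Pcp4l1 had 3 UMIs and Synm 2 in contractile-high cells and both had 0 in contractile-low cells. Their ratios there depend on the 0.5 UMI added. In replicate 2 the UMIs were 46 against 0 for Pcp4l1 and 28 against 1 for Synm. Crispld2 was at 11.9 and 20.8 UMIs per 10000 in contractile-high cells and at 1.08 and 1.07 in contractile-low cells, and S100a4 at 3.37 and 8.77 against 0.241 and 0.357. Spp1 (osteopontin) rested on few cells: 1 collagen-rich contractile-high cell of each library held 193 of its 249 and 295 of its 310 UMIs, and without keratin-rich and collagen-rich cells the log2 ratio was 2.49 and -0.34. Of 5 mural list genes described, 4 were also higher in contractile-high cells of both libraries, namely Cspg4 (the proteoglycan NG2), Des, Mcam and Ndufa4l2. So were Heyl, a Notch target, Mef2c and Foxs1, transcription factors of mural cells, and Gucy1a3, Rgs4 and S1pr3 of the vasoactive signalling list. Of 11 basement membrane genes described, 0 were called in either direction, beside 4.77% higher and 5.01% lower over all genes described. At these shares a list this short would hold few calls or none, so the count is not a result about the list.

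The genes lowest in contractile-high cells were of mixed kind. Of 5 fibroblast list genes described, 2 were lower, Dcn (decorin) and Lum (lumican), both small proteoglycans that bind collagen. Dcn was at 0.259 and 0.505 UMIs per 10000 in contractile-high cells and at 11.1 and 12.4 in contractile-low cells, but without keratin-rich and collagen-rich cells its log2 ratio was -0.79 and -5.69, and that of Lum 2.38 and -3.27. Epithelial genes were among them, since 4 of 5 epithelial list genes described (Krt8, Krt18, Cldn3 and Cldn4) and Krt14 were lower in contractile-high cells. These went with the keratin-rich cells, all 6 of which were contractile-low. Once keratin-rich and collagen-rich cells were left out, Wnt4, Msln and Wnt7b, which were named among the lowest, had no UMI in either class of LATS1/2 KO replicate 1. Ezr then had 2 UMIs in contractile-high and 2 in contractile-low cells of that library, Krt7 had 3 and 2, and Krt14 had 4 and 7. Without those cells 75 genes were higher and 65 lower of 1308 described. Among YAP/TAZ target genes, Cyr61 (also called Ccn1), Amotl2 and Myof were lower in contractile-high cells, and 0 of 10 were higher. Cyr61 was at 0.777 and 5.11 UMIs per 10000 in contractile-high cells and at 6.37 and 10.9 in contractile-low cells, and its log2 ratio without keratin-rich and collagen-rich cells was -1.15 and 0.97. Keratin-rich cells held 15 of 17 and 12 of 18 UMIs of Amotl2 and 16 of 30 and 14 of 27 UMIs of Myof in the LATS1/2 KO libraries. Without the keratin-rich and collagen-rich cells the log2 ratio was -1.52 and -0.84 for Amotl2 and -0.97 and 0.08 for Myof.

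**Figure D3:**
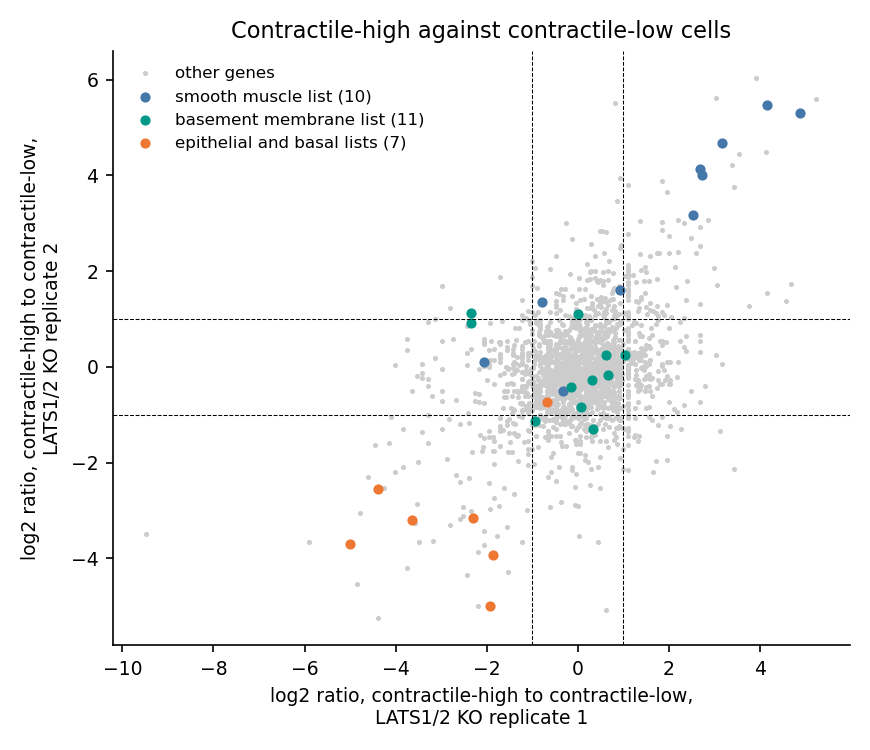
Log2 ratio of contractile-high to contractile-low perivascular cells in LATS1/2 KO replicate 1 (x axis) and replicate 2 (y axis) for the 2035 genes described, with 3 gene lists coloured and dashed lines at a ratio of 2 in either direction. Of the smooth muscle genes 6 lie at the upper right beyond both lines, and most epithelial and basal genes lie at the lower left. None of the 11 basement membrane genes lies beyond the lines in both libraries in 1 direction. Of all genes described, 4.77% lie so at the upper right and 5.01% at the lower left.

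LATS1/2 KO and WT perivascular cells were then compared over the summed counts of each library (edgeR quasi-likelihood test, Benjamini-Hochberg adjustment, n = 2 per condition). A sum over the cells does not separate a change in the mixture of contractile-high and contractile-low cells from a change within cells, so levels in contractile-high cells alone are given beside it. Of 1634 genes tested apart from those of the selection, 78 (4.77%) passed an adjusted p of 0.05, with 42 (2.57%) higher and 36 (2.2%) lower in LATS1/2 KO, and 434 had an unadjusted p under 0.05. The libraries of the conditions did not overlap for 532 genes that were higher (32.6%) and 474 that were lower (29%). With contractile-high cells only, 17 of 802 genes passed (2.12%), 9 higher (1.12%) and 8 lower (0.998%), and 15 of them were among the 78. Without keratin-rich and collagen-rich cells 38 of 1075 genes passed (3.53%), 19 higher (1.77%) and 19 lower (1.77%), of which 17 and 17 were among the 78. The calls stood close to the threshold. On all cells DESeq2 called 75 genes, of which 23 higher and 25 lower were among the 78, and it gave no adjusted p for 317 genes. When the 6 perivascular cells with the highest doublet scores were left out, 0 of 1618 genes passed in edgeR. The smallest adjusted p was then 0.0627, and 348 genes had an unadjusted p under 0.05. Without WT replicate 1 there were 13 calls and without WT replicate 2 there were 36.

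Contractile genes were lower in LATS1/2 KO perivascular sums. All 15 smooth muscle genes tested had a negative log2 fold change, with a median of -1.97 beside 0.06 over all genes tested, and the libraries of the 2 conditions did not overlap for 14 of them. The test was passed by 3, namely Cnn1, Pln and Synpo2, and 0 were higher, beside 2.2% called lower over all genes tested. Cnn1 (calponin, an inhibitor of actomyosin) had 12 and 7 UMIs in 5 and 3 WT cells, or 1.71 and 1.87 per 10000, and 0 and 2 UMIs in LATS1/2 KO, a log2 fold change of -4.87 (SE 0.82, adjusted p = 0.0195). Pln was at 4.29 and 3.75 per 10000 in WT and at 0.246 and 0.591 in LATS1/2 KO (log2 fold change -3.08, SE 0.50, adjusted p = 0.0195). Synpo2, an actin-bundling protein, was at 3.29 and 4.55 against 1.15 and 1.03 (log2 fold change -1.80, SE 0.43, adjusted p = 0.0497). Both WT values lay above both LATS1/2 KO values for each of these genes. Without keratin-rich and collagen-rich cells Cnn1 and Pln passed and Synpo2 did not (adjusted p = 0.132).

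The more abundant contractile genes did not pass the adjusted threshold in this fit. Myh11 was at 31.9 and 42.3 UMIs per 10000 in WT and at 2.14 and 9.61 in LATS1/2 KO (log2 fold change -2.60, SE 0.64, adjusted p = 0.0543). Acta2 was at 91.5 and 155 against 8.79 and 43.1 (log2 fold change -2.22, SE 0.70, adjusted p = 0.0913), and Myl9 at 35.9 and 55.4 against 3.37 and 15.2 (adjusted p = 0.0777). In each of these the LATS1/2 KO libraries lay apart from one another, as did their shares of contractile-high cells. Tagln was the exception to the separation of libraries, with 70.3 and 128 in WT and 14.2 and 71.9 in LATS1/2 KO (adjusted p = 0.312). In contractile-high cells only, Myh11 was at 33.9 and 43.4 in WT and 6.73 and 16.2 in LATS1/2 KO (adjusted p = 0.0832), a comparison in which Myh11 and Acta2 had also chosen the cells. Over the 13 smooth muscle genes tested there, the median log2 fold change was -1.38 and 1 passed, Pln (log2 fold change -2.20, adjusted p = 0.0414). In contractile-high cells that were neither keratin-rich nor collagen-rich the call of Pln was lost (log2 fold change -1.97, adjusted p = 0.0623).

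Of the genes upstream of the contractile programme, Mef2c, a transcription factor of muscle and vessels, fell from 6.43 and 4.02 UMIs per 10000 in WT to 0.657 and 1.52 in LATS1/2 KO (log2 fold change -2.17, SE 0.48, adjusted p = 0.0401). Myocd, which encodes myocardin, was at 1.57 and 1.61 against 0 and 0.259, or 11, 6, 0 and 7 UMIs, and did not pass (adjusted p = 0.0657). Without keratin-rich and collagen-rich cells the adjusted p of Mef2c was 0.0606. In all, 2 of 12 mural transcription factors tested fell, Mef2c and Nr4a1, and 0 rose. Of the Notch list, which holds the receptor, its ligands and its targets, 0 of 4 passed, and of the PDGF list 0 of 2. Over all genes tested 4.77% passed, a share at which lists this short would hold few calls or none. Pdgfrb was at 2.29 and 2.41 in WT and at 5.34 and 5.06 in LATS1/2 KO (log2 fold change 1.17, adjusted p = 0.0998), values that did not overlap.

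**Figure D4:**
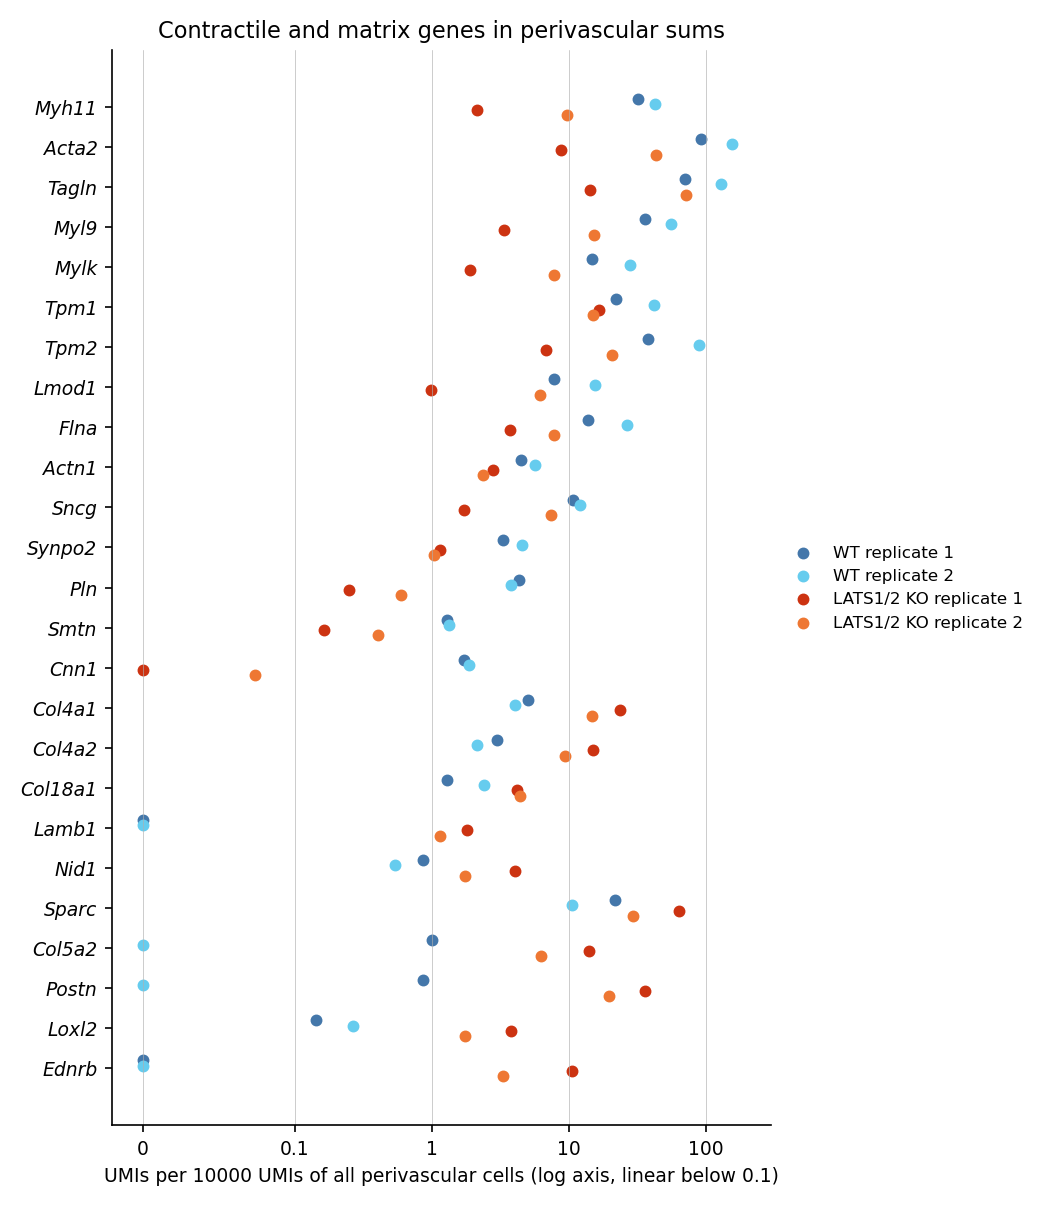
UMIs per 10000 of contractile genes (top, Myh11 to Cnn1) and matrix genes with Ednrb (bottom, Col4a1 to Ednrb) in the perivascular sums of each library, on an axis that is logarithmic above 0.1 and linear below. WT points lie to the right of LATS1/2 KO points for the contractile genes other than Tagln and to the left for the matrix genes.

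Promoters of the contractile genes were read from the RefSeq table of build GRCm38.p6, which runs from 250 bases before to 50 after each start. The table held 14 of the 17 smooth muscle list genes, Myh11, Tagln and Actg2 being absent. The CArG box, bound by serum response factor, was searched as its strict consensus with no mismatch, so that near matches were not counted. It was found in 1 of these 14 promoters, that of Myl9, and in 1.63% of all 32851 promoters. The hexamer GGAATG, the core of the site bound by TEAD factors (the DNA-binding partners of YAP and TAZ), was found on either strand in 6 of the 14 (Acta2, Smtn, Lmod1, Mylk, Tpm1 and Flna) and in 14.7% of all promoters, and was looked for after the data had been seen. The 2 promoters below are those of Acta2, which defined the split, with that hexamer in capitals, and of Myl9, with the CArG box in capitals, each as the 250 bases before the start and 5′ to 3′ on the gene's strand. A match in sequence is not a bound site.
Acta2, chr19:34255374-34255623, minus strand: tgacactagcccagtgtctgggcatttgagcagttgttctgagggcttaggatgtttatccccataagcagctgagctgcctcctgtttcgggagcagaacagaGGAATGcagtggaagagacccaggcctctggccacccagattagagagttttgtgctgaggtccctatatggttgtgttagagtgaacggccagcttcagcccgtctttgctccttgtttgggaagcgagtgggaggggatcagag
Myl9, chr2:156775214-156775463, plus strand: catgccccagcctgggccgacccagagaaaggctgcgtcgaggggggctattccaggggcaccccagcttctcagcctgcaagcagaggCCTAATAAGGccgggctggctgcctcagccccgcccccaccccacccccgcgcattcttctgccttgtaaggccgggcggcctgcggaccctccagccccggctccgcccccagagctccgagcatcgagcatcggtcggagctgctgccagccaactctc

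Some matrix genes were higher in LATS1/2 KO perivascular cells. Of 9 basement membrane genes tested, 3 rose (Col4a1, Col4a2 and Lamb1) and 0 fell, beside 2.57% called higher over all genes tested. The median log2 fold change of the list was 1.54. Col4a1 and Col4a2 encode the chains of the type IV collagen network that mural and endothelial cells share. Col4a1 was found in 13 of 17 and 6 of 7 WT cells and in 29 of 29 and 51 of 62 LATS1/2 KO cells, at 5.00 and 4.02 UMIs per 10000 against 23.4 and 14.8 (log2 fold change 2.08, SE 0.41, adjusted p = 0.0317). Col4a2 was at 3.0 and 2.14 against 14.9 and 9.28 (log2 fold change 2.21, SE 0.44, adjusted p = 0.0317). Both stayed past the threshold in contractile-high cells only, where Col4a1 was at 5.03 and 4.15 in WT and at 36.0 and 15.8 in LATS1/2 KO (adjusted p = 0.0363). In contractile-high cells that were neither keratin-rich nor collagen-rich both calls were lost, with a log2 fold change of 1.65 for Col4a1 (adjusted p = 0.0623) and 1.55 for Col4a2 (adjusted p = 0.0783). Lamb1, a laminin beta chain, had no UMI in WT and 22 and 31 in LATS1/2 KO, at least 4.83-fold higher against a floor of 3 UMIs over the WT cells (adjusted p = 0.0401), with 12 of 29 and 13 of 62 cells positive. It had too few UMIs to be tested without keratin-rich and collagen-rich cells or in contractile-high cells only. Sparc, a collagen-binding glycoprotein, was at 21.6 and 10.4 against 64.0 and 29.3 and did not pass (adjusted p = 0.0958). The summed basement membrane list was at 38.4 and 28.4 UMIs per 10000 in WT and at 119 and 69.1 in LATS1/2 KO perivascular cells. It was also higher in LATS1/2 KO in endothelial cells, at 23.1 and 16.3 against 50.7 and 55.4, and in all kept cells, at 2.11 and 1.70 against 14.7 and 17.0. The part of RNA from other cells in these values was not tested.

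Among 24 genes of the fibrillar and remodelling matrix list, 3 rose (Postn, Col5a2 and Loxl2), 1 fell (Aspn, asporin), and the median log2 fold change was 1.70. Over all genes tested 2.57% were called higher and 2.2% lower, and the 1 fall is near that share. Postn (periostin, a matricellular protein of remodelled tissue) had 6 UMIs in 4 of 17 cells and none in 7 cells of WT, and 434 and 526 UMIs in 22 of 29 and 42 of 62 cells of LATS1/2 KO. Per 10000 UMIs it was at 0.857 and 0 against 35.6 and 19.4 (log2 fold change 5.69, SE 0.74, adjusted p = 0.0182), and in cells that were neither keratin-rich nor collagen-rich at 31.1 and 14. In contractile-high cells only it was at 0.915 and 0 against 42.5 and 19.6 (adjusted p = 0.00419). Postn was thus detected in both classes of LATS1/2 KO cell, in 6 of 9 and 27 of 40 contractile-high cells. Col5a2 was at 1.00 and 0 against 14 and 6.25 (log2 fold change 4.02, SE 0.77, adjusted p = 0.0306), with 110 of 171 and 108 of 169 UMIs in collagen-rich cells, and without keratin-rich and collagen-rich cells its adjusted p was 0.0606. Loxl2, a lysyl oxidase that cross-links collagen, was at 0.143 and 0.268 against 3.78 and 1.74 (adjusted p = 0.0383), with 32 of 46 and 24 of 47 UMIs in collagen-rich cells, and had too few UMIs to be tested without keratin-rich and collagen-rich cells or in contractile-high cells only. Beside these, the summed fibroblast list was at 21.4 and 0.803 per 10000 in WT and at 69.5 and 37.1 in LATS1/2 KO, and at 29.1 and 21.3 without keratin-rich and collagen-rich cells; the part of free RNA or of fibroblasts in the matrix genes was not tested.

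In the vasoactive signalling list, Ednrb was called higher and Gucy1a3 lower. Ednrb, the type B endothelin receptor, had no UMI in 24 WT cells and 127 and 89 UMIs in 19 of 29 and 28 of 62 LATS1/2 KO cells, with at most 19 and 14 in a single cell. It was at 10.4 and 3.29 UMIs per 10000 in LATS1/2 KO, at least 19.7-fold higher against the floor of 3 UMIs (adjusted p = 0.0213), and kept an adjusted p of 0.0363 in contractile-high cells only and 0.0304 without keratin-rich and collagen-rich cells. Ednra, the type A receptor, was at 1.29 and 0.536 in WT and at 1.64 and 1.81 in LATS1/2 KO (adjusted p = 0.336). Gucy1a3 fell from 8.86 and 6.16 to 0.985 and 2.44 (log2 fold change -2.05, SE 0.48, adjusted p = 0.0482), and its adjusted p was 0.0974 in contractile-high cells only and 0.0897 without keratin-rich and collagen-rich cells. Of the 9 genes of that list tested, 1 rose and 1 fell, beside 2.57% called higher and 2.2% lower over all genes tested. These counts are too few to be a result about the list. Of the channels and pumps list 0 of 4 passed, beside 4.77% over all genes tested.

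Among the other genes with the largest rises, Serpina3n, a serine protease inhibitor, had no UMI in WT and 41 and 149 UMIs in 12 of 29 and 39 of 62 cells of LATS1/2 KO, at least 17.3-fold higher (adjusted p = 0.0195). Serpina3n also differed over all kept cells, at 0.0226 and 0.0176 UMIs per 10000 in WT and at 0.69 and 3.97 in LATS1/2 KO, and the part of free RNA in its rise was not tested. Spon1, Lgals3bp and Fkbp5 (a glucocorticoid-responsive chaperone) also had no UMI in WT and were at least 6.75-fold, 5.29-fold and 4.01-fold higher. Over all kept cells, Spon1 was at 0.0438 and 0.0279 UMIs per 10000 in WT and at 0.757 and 0.994 in LATS1/2 KO. Lgals3bp was at 0.190 and 0.250 against 0.527 and 0.667 there, and Fkbp5 at 0.114 and 0.104 against 0.486 and 0.693. The part of free RNA in their rises was not tested. None of them had enough UMIs to be tested in contractile-high cells only. Spp1 had no UMI in WT and 249 and 310 in LATS1/2 KO, of which 193 and 295 lay in 1 cell each, and outside the collagen-rich and keratin-rich cells it was at 8.54 and 0.757 per 10000. Igfbp2 and Krt7 were called as well, and Igfbp2 had 751 of its 764 UMIs of LATS1/2 KO replicate 1 in the 1 keratin-rich cell. Krt7 had 87 of 92 and 72 of 89 UMIs in keratin-rich cells. The epithelial list as a whole moved the same way, with 5 of 5 genes tested called higher and a summed level of 3.14 and 1.87 per 10000 in WT against 61.3 and 28.9 in LATS1/2 KO, or 23.9 and 7.47 without keratin-rich and collagen-rich cells. Krt8 did not pass once those cells were left out (adjusted p = 0.102).

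Chosen after their values were seen, Mt2 and Rbm3 are given since they passed in contractile-high cells and without the 12 mixed cells alike. Mt2, a metallothionein that binds zinc and other metals, was at 0.572 and 1.61 UMIs per 10000 in WT and at 8.54 and 10.4 in LATS1/2 KO (log2 fold change 3.28, SE 0.54, adjusted p = 0.0195), in 24 of 29 and 53 of 62 LATS1/2 KO cells. Rbm3, a cold-inducible RNA-binding protein, was at 2.00 and 0.268 against 9.20 and 9.57 (log2 fold change 2.87, SE 0.58, adjusted p = 0.0331).

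Immediate early genes respond within minutes to stress and also to tissue dissociation. Of 22 genes of the immediate early and heat shock list tested, 3 fell (Egr1, Atf3 and Nr4a1), 0 rose, and 16 had a negative log2 fold change, with a median of -0.85. Over all genes tested 2.2% were called lower. Atf3 was at 33.4 and 20.9 UMIs per 10000 in WT and at 4.35 and 6.95 in LATS1/2 KO (log2 fold change -2.23, SE 0.43, adjusted p = 0.0306). Egr1 was at 30.7 and 32.4 against 7.64 and 10.6 (log2 fold change -1.77, SE 0.38, adjusted p = 0.0381), and Nr4a1 at 16.7 and 16.1 against 4.93 and 4.43 (log2 fold change -1.80, SE 0.36, adjusted p = 0.0328). All 3 also passed in contractile-high cells only, but not in those that were neither keratin-rich nor collagen-rich (adjusted p = 0.0593 for Atf3 and 0.0513 for Egr1 and Nr4a1). Without keratin-rich and collagen-rich cells Atf3 passed (adjusted p = 0.0304), while Egr1 (0.0606) and Nr4a1 (0.051) did not. The heat shock gene Hspa1b was at 2.57 and 0.268 in WT and at 3.86 and 7.87 in LATS1/2 KO (adjusted p = 0.118). The summed list was at 383 and 345 UMIs per 10000 in WT and at 159 and 224 in LATS1/2 KO perivascular cells. The same sum was lower in LATS1/2 KO in other cells of the libraries, at 253 and 251 against 157 and 170 (epithelial cells) and at 262 and 367 against 199 and 197 (endothelial cells). Their part in the result was not tested.

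The remaining genes with the largest falls were Adamtsl1, Gm13861, Rab6b, Tesc, Rbm24 (a muscle splicing factor), Nkd1 (an inhibitor of Wnt signalling), Syne1 (a nuclear envelope protein) and Rrad (a small GTPase of muscle). Rrad was the most abundant of these, at 15.3 and 9.91 UMIs per 10000 in WT and 0.739 and 1.96 in LATS1/2 KO (log2 fold change -3.13, SE 0.52, adjusted p = 0.0195), and stayed past the threshold in contractile-high cells only (adjusted p = 0.0363). The others had at most 17 UMIs in any library. Palld, the actin-organising protein palladin, was chosen after its values were seen and fell from 4.57 and 8.57 to 0.985 and 0.961 (log2 fold change -2.69, SE 0.46, adjusted p = 0.0195).

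YAP/TAZ target genes showed no common direction in the perivascular cells. Of 22 list genes 8 were tested, and 0 rose and 1 fell, beside 4.77% called over all genes tested. This was Gadd45b, which is also a stress-response gene. It fell from 23.0 and 21.7 UMIs per 10000 in WT to 4.02 and 6.28 in LATS1/2 KO (log2 fold change -2.08, SE 0.40, adjusted p = 0.0306). Cyr61 was at 4.43 and 2.68 in WT and at 4.60 and 7.50 in LATS1/2 KO (adjusted p = 0.301), with 32 of its 56 and 105 of its 203 LATS1/2 KO UMIs in keratin-rich cells, and Ctgf, also called Ccn2, at 1.00 and 0 against 1.07 and 4.36 (adjusted p = 0.175). No gene passed among 8 of the TGF-beta list, 7 of the interferon list, 5 integrins, 4 angiogenic factors and 2 cytokines and chemokines. At the share of 4.77% over all genes tested, lists this short would hold few calls or none. These counts are therefore not results about the pathways. Of the IGF list, Igfbp2 alone of 5 genes passed. Only 1 of 18 cell cycle genes was abundant enough to be tested, and it did not pass.

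**Figure D5:**
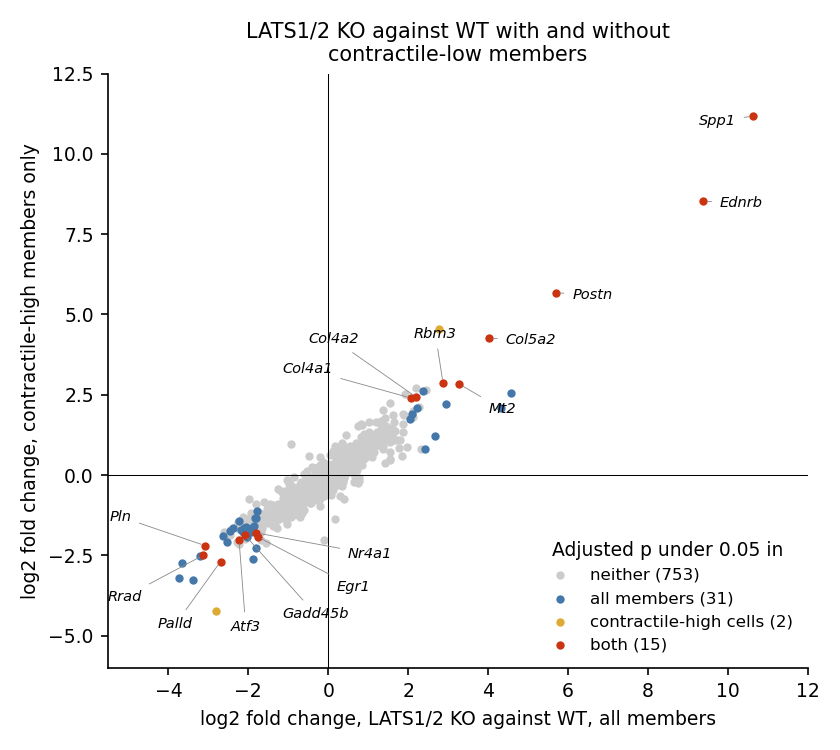
Log2 fold change of LATS1/2 KO against WT in all perivascular cells (x axis) and in contractile-high cells only (y axis) for the 801 genes tested in both, coloured by the fits in which the adjusted p was under 0.05. The 15 genes that passed in both are named, with 8 at the upper right, among them Postn, Ednrb, Col4a1 and Col4a2, and 7 at the lower left, among them Rrad, Pln and Egr1; points on the far right include genes with no UMI in WT, whose fitted values are not bounds.

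To ask whether the response differed from that of other stromal cells, the effect of condition was compared between perivascular cells and each of 2 comparators in 1 fit with the library as block. In simulated counts this recovered 30.2% of 43 (fibroblasts) and 30.9% of 55 (endothelial cells) genes changed 8-fold. Changed genes that the low-count filter removed are not in these shares. A small number of calls therefore does not show that responses were alike. Against fibroblasts (37, 14, 176 and 443 cells), 8 of 3248 genes differed (0.246%), 2 with a larger (0.0616%) and 6 with a smaller (0.185%) log2 change in perivascular cells. Acta2 was among the latter, at 0.117 and 0.828 UMIs per 10000 in WT fibroblasts and at 4.56 and 2.03 in LATS1/2 KO fibroblasts, while it was lower in LATS1/2 KO than in WT perivascular cells (difference of log2 changes -5.71, SE 1.04, adjusted p = 0.0311). Palld and Flna (filamin A) showed the same opposite order. The comparator also changed in mixture. Fibroblasts led by Lrrc15, Fap and Adam12 were 1 and 0 of its cells in WT and 109 and 113 in LATS1/2 KO. A sum over fibroblasts does not separate this from a change within cells, and its part was not tested. Against endothelial cells (35, 33, 200 and 203 cells), 2 of 4297 genes differed (0.0465%), Emp1 and Ccnd1 (cyclin D1). These counts depended on single libraries, being 1 without WT replicate 2 and 44 without LATS1/2 KO replicate 2 for the fibroblast comparison.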

How the data were processed

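Mammary cells of 4 mice were measured by droplet single-cell RNA-sequencing, 1 library per mouse, with 2 WT and 2 LATS1/2 KO libraries grouped by their labels. The deposited files hold UMI counts per gene and cell that the authors made with Cell Ranger against mm10. The file header names version 6.1.2, while the submitters' processing notes list 3.1.0. Of 20324 barcodes, 18200 were kept, at over 500 genes and less than 20% mitochondrial UMIs, with 38792520 to 46810771 UMIs per library. The perivascular cells and the gene lists were chosen with earlier results of these data known.

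Counts of the perivascular cells were summed per library and tested with edgeR 4.0.16 in R 4.3.3 (quasi-likelihood test, TMM scaling, filterByExpr, Benjamini-Hochberg adjustment over all genes tested, threshold 0.05). The p-values measure the spread between 2 mice per condition. The response was compared with that of fibroblasts and endothelial cells by an interaction term with the library as block, and shares by exact permutation. Fibroblasts had at least 2 of the 6 fibroblast genes of the selection, at or above the mural genes, and endothelial cells had Pecam1 and at least 2 of Cdh5, Kdr, Flt1, Cldn5 and Emcn. The contractile split uses measured values, so genes are compared between its classes without a test. The contractile-high share was compared between conditions by exact permutation. Conditions were also tested within contractile-high cells, which Myh11 and Acta2 had chosen. Scripts were tested on simulated counts of the same depth. Shares recovered are over the changed genes that passed the low-count filter. There the comparison of conditions, with 1543 genes tested, recovered 13.8% of 58, 69.0% of 58 and 98.4% of 64 genes changed 2, 4 and 8-fold. The interaction fits recovered 0% of 30, 17.9% of 28 and 30.2% of 43 such genes against fibroblasts. Against endothelial cells they recovered 0% of 44, 10.2% of 49 and 30.9% of 55. The simulation gave each gene the same starting level in perivascular and comparator cells, unlike the data. Intervals cover counting error only. A gene without a WT UMI has a fold against 3 UMIs over the group.

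Genes of the lists could be named whatever their change. Others were named by rank: the 10 largest and 10 smallest log2 fold changes among called genes without overlap and with at least 20 UMIs, the 12 largest ratios each way of the split, the 10 leading genes, and 5 each way by adjusted p for each interaction. Alternatives were RLE scaling, DESeq2 1.42.0, no filter, the replicate block, thinning, doublet scores from Scrublet in scanpy 1.11.5 (top 5% left out, since its own calls were too few to use), other limits for the cells, and each library left out. Of the gene symbols, 58 are listed more than once. Some genes that the naming rule covers are not reported here.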

Additional observations from a re-analysis of the deposited data

Results flagged for a closer look

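In 8 genes against fibroblasts and 2 against endothelial cells the response to LATS1/2 loss differed between perivascular cells and a comparator by the test of the difference itself (edgeR quasi-likelihood test with Benjamini-Hochberg adjustment), given here as the log2 change in perivascular cells minus that in the comparator.

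Against fibroblasts, 2 of these were larger in perivascular cells. Apod, a lipid-binding lipocalin, was at 0.286 and 0 UMIs per 10000 in WT perivascular cells and at 5.09 and 5.99 in LATS1/2 KO, and at 60.1 and 141 against 29.6 and 86.7 in fibroblasts (difference 5.57, adjusted p = 0.0108). Of its UMIs in LATS1/2 KO perivascular cells, 46 of 62 and 77 of 162 lay in 1 cell each, and in contractile-high cells only the adjusted p was 0.188. Spp1 was at 0 and 0 against 20.4 and 11.5 in perivascular cells and at 2.82 and 3.04 against 13.8 and 2.73 in fibroblasts (difference 11.51, adjusted p = 0.0108), a value that depends on the prior count since WT was at 0 and on 1 collagen-rich cell per LATS1/2 KO library.

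The other 6 were smaller in perivascular cells, among them Adamtsl1 (difference -4.58, adjusted p = 0.0442). The remaining 5 were each lower in LATS1/2 KO than in WT in perivascular cells and higher in LATS1/2 KO in fibroblasts. The mixture of fibroblasts differed between the conditions, as given above, and its part was not tested. Chchd10, a mitochondrial protein, was at 2.72 and 2.14 against 0.575 and 0.702 in perivascular cells and at 0.0587 and 0 against 1.76 and 2.47 in fibroblasts (difference -7.70, adjusted p = 0.000807). Palld was at 1.17 and 0.828 against 4.86 and 2.07 in fibroblasts (difference -4.21, adjusted p = 0.00701). Flna was at 13.9 and 26.5 against 3.70 and 7.72 in perivascular cells and at 0.352 and 0.690 against 2.21 and 1.60 in fibroblasts (difference -3.78, adjusted p = 0.0196). For Acta2 the difference was -5.71 (adjusted p = 0.0311). Sorbs2, an actin-associated adaptor, was at 4.0 and 8.30 against 0.493 and 1.74 in perivascular cells and at 0 and 0 against 0.375 and 0.403 in fibroblasts, so that its difference of -9.75 (adjusted p = 0.0311) depends on the prior count. Without keratin-rich and collagen-rich cells the adjusted p was 0.0548 for Acta2, 0.0548 for Flna, 0.134 for Spp1 and 0.104 for Adamtsl1.

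Against endothelial cells, both were larger in perivascular cells. Emp1, an epithelial membrane protein, had 3, 1, 73 and 110 UMIs in perivascular cells and was at 11.5 and 12.1 against 7.08 and 6.46 per 10000 in endothelial cells (difference 4.51, adjusted p = 0.0281). Ccnd1 had 0, 0, 18 and 22 UMIs and was at 2.60 and 1.29 against 0.487 and 0.366 in endothelial cells (difference 10.61, adjusted p = 0.0417), again with WT at 0. The adjusted p of Ccnd1 was 0.214 without keratin-rich cells, 0.233 without keratin-rich and collagen-rich cells and 0.624 in contractile-high cells only.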

How the results depend on the processing

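Of the results that answer a comparison, 37 values under alternatives stayed near the reported one and 36 moved. Called genes between conditions numbered 78 and became 12 without a low-count filter, 0 (348 at an unadjusted p under 0.05) without the top doublet scores, 38 without keratin-rich and collagen-rich cells, 17 in contractile-high cells, 9 in those without the mixed cells, and 13 to 68 with 1 library left out, lowest without WT replicate 1. With the replicate number as a block there were 182, but the numbers are only shared labels (correlation of deviations 0.161 over 2 pairs), and the interaction fits already hold the library as block. The fibroblast comparison, 8 genes, gave 21 with RLE scaling, 17 with DESeq2, 33 without a filter, 24 thinned, 25 for genes above the level of all kept cells, 28 without keratin-rich cells, 13 in contractile-high cells with or without the mixed cells, and 1 to 44 with 1 library left out. The endothelial comparison, 2 genes, gave 1 with DESeq2, 45 without a filter, 0 thinned and 0 above the level of all kept cells (93 and 244 at an unadjusted p under 0.05 in edgeR), 21 without keratin-rich cells, 12 without the mixed cells, 29 and 27 in contractile-high cells with and without the mixed cells, and 7 to 172 with 1 library left out. The split count of 199 became 44 with at least 3 of the 6 mural genes, 70 thinned and 120 to 329 with 1 library left out. The difference in share of kept cells, 0.638 points, ran from 0.372 to 0.903 and the contractile-high share, 47.8%, from 31.0 to 64.5% with 1 library left out. The cause of these shifts was not tested.

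Among single genes, 1172 values were counted as the same, 503 as weaker, 22 as stronger and 20 as reversed. Between conditions, the same means the same side of the threshold, and a change of sign counted as reversed only where a fit passed. Changes of sign in Heyl (log2 fold change -0.297 to 0.284) and Mcam (-0.191 to 0.925), which passed in no fit, were thus not counted. In the split, which has no test, the same means the same sign. All 20 reversed values were in the split. In LATS1/2 KO replicate 1, Spp1 was -6.06 at a limit of 20 and -5.06 by Myh11 alone. In replicate 2 it was -4.78 by Myh11 alone and -0.34 without the mixed cells. Without the mixed cells, Wnt4, Msln, Ezr and Wnt7b were 0.80, Krt14 0.0625 and Krt7 1.28 in replicate 1, and Krt8 0.15 and Wnt7b 0.19 in replicate 2. With at least 3 mural genes, Wnt4, Msln and Wnt7b were 0.98 and Krt7 1.72 in replicate 1, and Krt7 0.28, Krt8 0.48 and Wnt7b 0.12 in replicate 2. Thinned, Wnt4 was 0.70. The values of Wnt4, Msln and Wnt7b in replicate 1 are the 0.5 UMI added over unequal totals, with no UMI in either class, and Ezr had 2 UMIs in each. Fits with under 10% mitochondrial UMIs or at least 3 mural genes were not run between conditions, since WT replicate 2 then held under 5 cells. Depth limits the finding of changes of 2-fold, and in the interaction fits of 8-fold as well.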
